A study of Bos taurus with 6 samples.

Results

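The genes of the heat shock proteins and of the J-domain proteins were followed in bovine blastocysts that developed from oocytes matured with or without melatonin (MT). They were taken by gene symbol, as every symbol that begins with HSPA, HSPB, HSPD, HSPE, HSPH, HSP90 or DNAJ, with HSPA5 left out. This gave 69 genes of the 36075 listed, of which 20337 carry a symbol. They fall into the HSP70 family (12 genes, HSPA with HSPH1), the HSP90 family (3), the small heat shock proteins (9 by the symbol HSPB), the mitochondrial chaperonin (2, HSPD1 and HSPE1) and the DNAJ proteins (43, with 4 DNAJA, 12 DNAJB and 27 DNAJC genes). HSPBP1 and HSPBAP1 match the symbol of the small heat shock proteins but encode binding proteins of HSP70 and of HSPB1.

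Chaperones bind unfolded stretches of other proteins and keep them from aggregating until they fold, are moved across a membrane or are degraded. HSP70 proteins do this in cycles of ATP binding and hydrolysis, J-domain proteins bring the client and set off the hydrolysis, and nucleotide exchange factors open the cycle again. HSP90 takes over clients that are close to their final fold, such as kinases and steroid receptors, small heat shock proteins hold unfolded proteins without ATP, and HSPD1 with its lid HSPE1 encloses clients in the mitochondrial matrix. In the early mammalian embryo HSPA8 and HSP90 are made constitutively, and HSPA1A is known as an early product of the embryonic genome and as the classical gene induced by heat.

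Control blastocysts came from cumulus-oocyte complexes matured for 22 h without MT, and MT-treated blastocysts from complexes matured for the same time with 1e-07 mol/L MT. Both groups shared ovaries from a slaughterhouse, in vitro fertilization and in vitro culture, and the methods name MT in the maturation medium only. Each group had 3 libraries, each a pool of 3 whole blastocysts from an in vitro production run. The methods state that the complexes of a run were divided between the treatments, but the labels do not tie replicate numbers to runs. The pools held whole embryos, so trophectoderm, inner cell mass and hypoblast were measured together. In such pools fewer cells of a type and less RNA per cell cannot be told apart. The comparison asks how the transcriptome of the blastocyst differs after MT during maturation.

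Levels are in TPM, a transcript abundance corrected for gene length and for the size of the library, so that genes can be compared within a library. TPM keep no counts, and the sequencing depth of the libraries was not analysed here. The listed TPM summed to between 936783 and 937698 in control and between 912686 and 913707 in MT-treated libraries. Between 8854 and 8953 genes were above 0 in each control library and between 14372 and 14408 in each MT-treated library. Of the 69 chaperone genes, 43 to 44 were above 0 in control and 57 to 58 in MT-treated libraries. Replicates were close, with a median coefficient of variation of 1.73% in control and 2.18% in MT-treated libraries over the 26 chaperone genes with at least 20 TPM throughout, against 2.07% and 2.56% over 2992 genes of all kinds. Differences were fitted for all 11953 genes with at least 1 TPM in at least 3 libraries, on log2(TPM + 1) with limma, with Benjamini-Hochberg adjustment over all of them. Of these genes, 95.7% passed an adjusted p of 0.05, with 61.6% higher and 34.1% lower in MT-treated blastocysts. The p-values measure the spread between these libraries, and a handling or library step that differed between the groups cannot be told apart from MT.

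The labelled tissue was checked against markers of the blastocyst. KRT8 lay between 8541 and 8828 TPM in control and between 6756 and 7009.6 TPM in MT-treated libraries, and POU5F1 at 188 to 191 and 191 to 194 TPM. In contrast, CDX2 and NANOG were listed at 0 in all control libraries and at 15.0 to 17.2 and 8.23 to 8.93 TPM in the MT-treated libraries. Of 8 trophectoderm markers 6 were higher and 2 lower, with a median log2 fold change of 0.64, while their sum, which is nearly all KRT8 and KRT18, was 11391 to 11739 TPM in control and 10516 to 10874 TPM in MT-treated libraries. Among them GATA2 was 6.95-fold, TFAP2C 1.89-fold and GATA3 1.88-fold higher, while ELF3 went from a mean of 57.7 to 11.3 TPM. Of 6 inner cell mass markers 3 were higher, 2 lower and 1 was not called, with sums of 264 to 268 and 316 to 321 TPM. Of 4 tested hypoblast markers 3 were higher and 1 lower, with a median of 4.04, and the sum over all 6 was 451 to 456 and 462 to 468 TPM. GATA6 went from a mean of 0.327 to 32.0 TPM, PDGFRA from 0 to 23.2 and HNF4A from 0 to 10.3, while APOA1, nearly all of the sum in control, went from 453 to 398 TPM. Of 9 cumulus and granulosa markers found, 5 were at 0 in all libraries, FOXL2 and HAS2 among them, and the sum was 149.9 to 157 in control and 120.6 to 123 in MT-treated libraries, nearly all of it from HSD3B1 and FSHR. Of 9 oocyte transcripts, 6 were at 0 throughout, GDF9, ZP2, ZP3 and ZP4 among them, with sums of 45.5 to 49.3 and 21.6 to 24.0. Of 5 sperm transcripts, TNP1 alone was listed above 0, at 65.0, 59.6 and 61.4 TPM in control and 0 in MT-treated libraries. The part of these differences in the results below was not tested.

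Chaperone transcripts as a whole had a lower summed TPM in MT-treated blastocysts. The 69 genes summed to 8183, 8141 and 8064 TPM in the control libraries and to 6519, 6532 and 6489 TPM in the MT-treated libraries. This was 0.860% to 0.873% of the listed TPM in control and 0.710% to 0.716% in MT-treated libraries, and the groups did not overlap. The sum fell to 0.801 of the control mean, from 8129 ± 60.4 (SD, n = 3) to 6513 ± 21.8. The sums are descriptions of the libraries and carry no test. This fall is smaller than the shift of 0.48 on the log2 scale that median centring takes out, described with the scalings, so that the direction of the total depends on the scaling. The same holds for the small heat shock protein and DNAJC sums and for the sum over cytosolic and nuclear genes.

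The decrease was uneven between the families. The HSP70 sum went from 1095.1 ± 8.98 TPM (SD, n = 3) in control to 1138 ± 16.8 after MT. The HSP90 sum was 1592 ± 13.1 and 1609.6 ± 15.2, and with TPM as deposited its libraries overlapped between the groups. With TPM rescaled to the same total, the differences (MT-treated minus control) were 77.6 for HSP70 and 63.8 for HSP90, in place of 42.8 and 17.5. The chaperonin sum went from 2118 ± 23.1 TPM in control to 1249 ± 27.9 after MT, or 0.590 of control. The DNAJ sum was 1872 ± 30.6 and 1295 ± 22.6 TPM, or 0.692 of control. Within the DNAJ proteins the sum of DNAJA was at 0.433 of control, that of DNAJB at 0.569 and that of DNAJC at 0.888. The small heat shock proteins summed to 1452 ± 25.0 TPM in control and to 1222 ± 34.1 after MT. The chaperonin and the DNAJ proteins thus made up the larger part of the drop in the total.

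**Figure D1:**
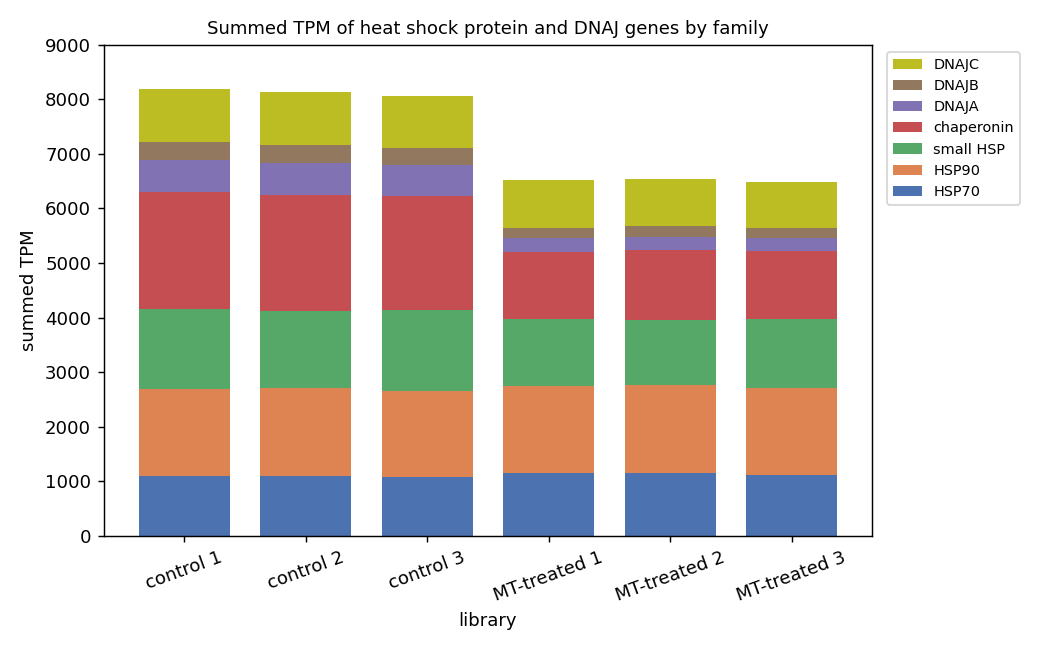
Summed TPM of the 69 heat shock protein and DNAJ genes (y axis) in each of the 6 libraries (x axis), with 1 stacked segment for each family. The control bars reach 8064 to 8183 TPM and the MT-treated bars 6489 to 6532 TPM, with the HSP70 and HSP90 segments of similar height in both groups and the chaperonin segment at 0.590 of control.

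Of the 69 genes, 56 passed the filter on low values. The fit over all genes called 24 of them higher and 26 lower after MT, which is 42.9% and 46.4%, beside 61.6% and 34.1% of all 11953 genes tested. At least 2-fold differences on the log2(TPM + 1) scale were called higher for 17 and lower for 12 of them, beside 51.0% and 19.6% of all genes tested. The groups did not overlap for 50 of the 56 genes, beside 96.1% of all genes tested. The remaining 6 genes did not pass the threshold, namely HSPH1, HSP90AA1, DNAJB14, DNAJC1, DNAJC13 and DNAJC14. The median log2 fold change of the 56 genes was 0.00, while that of all genes tested was 1.12. Of the 13 genes under the filter, 11 were listed at 0 in all 6 libraries. These were HSPA6, HSPB2, HSPB7, HSPB9, DNAJB3, DNAJB4, DNAJB8, DNAJB13, DNAJC5B, DNAJC5G and DNAJC12. The other two, DNAJB2 and DNAJC27, were at 0 in control and reached at most 0.490 and 0.830 TPM in MT-treated libraries.

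Some of the rises started from 0 in control. Of the 56 tested genes, 11 stood at 0 in all control libraries and none in all MT-treated libraries, beside 33.8% and 3.01% of all genes tested. Their means in MT-treated blastocysts lay between 3.38 and 31.3 TPM. Among the 42 chaperone genes above 0 in all libraries, 11 were higher and 25 lower (26.2% and 59.5%), beside 40.6% and 52.3% of the 6925 genes of that kind. Among the 13 with a mean of at least 100 TPM, 3 were higher and 9 lower (23.1% and 69.2%), beside 35.9% and 56.7% of 1311 such genes. The median log2 fold change was -0.27 for the 42 chaperone genes and -0.19 for all genes above 0 in all libraries, and it was -0.36 and -0.18 among genes with at least 100 TPM.

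The direction of some differences depended on the scaling. Genes with at least 1 TPM in all libraries had a median lower by 0.48 in MT-treated than in control libraries on the log2 scale, and taking this shift out, which is called median centring here and adds 0.48 to every log2 fold change, left 18 of the 26 lower genes lower and all 24 higher genes higher. The 8 that were no longer called lower had fallen by 0.53 or less and are named below. Quantile normalization, which gives all libraries the same distribution, left 23 of the 26 lower and 19 of the 24 higher genes called in the same direction, and among those it changed were larger rises, such as that of HSPA1A from 1.29 to -1.18 on the log2 scale. With TPM as deposited and under both of these scalings, 18 chaperone genes were called lower and 19 higher. Over all 11953 genes tested, 8412 were higher and 3038 lower with median centring. With quantile normalization 5550 were higher and 5311 lower. The share of all genes called under all of these scalings was not worked out. Some of the 19, such as DNAJB12, stood at 0 in all control libraries. These passed the filter through the MT-treated libraries alone and, with TPM as deposited, could only be called higher.

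**Figure D2:**
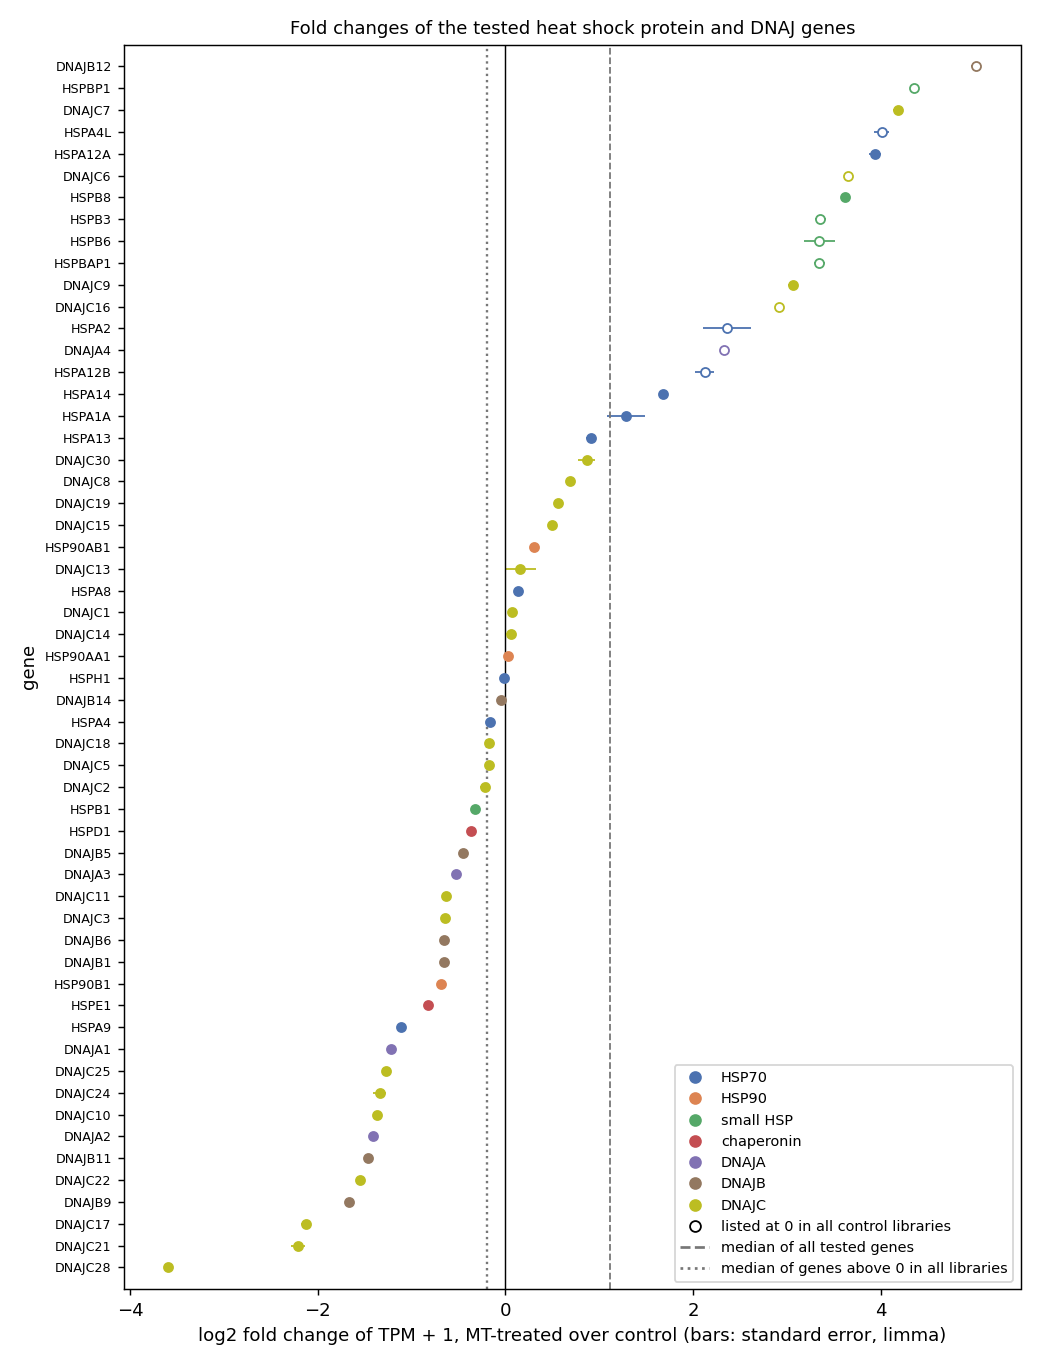
Log2 fold change of TPM + 1 in MT-treated over control blastocysts (x axis, points with standard errors from limma) for the 56 tested genes (y axis), coloured by family, with open points for the 11 genes at 0 in every control library. All open points lie above 2, where the size depends on the added 1 TPM, and the dashed and dotted lines mark the medians of all tested genes (1.12) and of genes above 0 in all libraries (-0.19).

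Among the HSP70 proteins, the cytosolic housekeeping gene stayed high and the mitochondrial gene fell. HSPA8, the constitutive cytosolic HSP70, was at 809.5, 808 and 797 TPM in the control libraries and at 893, 893 and 870.1 TPM in the MT-treated libraries. All MT-treated libraries were above all control libraries, with a log2 fold change of 0.14 ± 0.01 (SE; adjusted p = 0.000122, limma with Benjamini-Hochberg adjustment). HSPA9, or mortalin, which drives protein import into the mitochondrial matrix, was at 209, 210.2 and 208 TPM in control and at 96.3, 95.7 and 96.6 TPM in MT-treated libraries. It was 2.17-fold lower, with a log2 fold change of -1.11 ± 0.02 (SE; limma, Benjamini-Hochberg adjusted p = 4.12e-09). HSPA8 supplied 73.5% of the HSP70 sum in control and 77.8% in MT-treated blastocysts, and the ratio of HSPA8 to HSPA9 rose from 3.85 ± 0.0190 to 9.21 ± 0.174 (SD, n = 3). A ratio of genes within a library does not change when all its TPM are multiplied by a common factor, though quantile normalization can change it.

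Of the other members in this family with more than 10 TPM in control, HSPA14 rose and the HSP110-type exchange factors lay close to their control levels. HSPA14, a ribosome-associated HSP70, was at 14.9, 14.4 and 13.5 TPM in control and at 47.1, 49.4 and 47.5 TPM in MT-treated libraries, or 3.36-fold higher (log2 fold change 1.68 ± 0.04 SE; limma, Benjamini-Hochberg adjusted p = 6.96e-08). HSPA4, an exchange factor of HSP70, was at 34.7, 34.4 and 34.7 TPM in control and 30.9, 31.2 and 30.2 TPM in MT-treated libraries, a log2 fold change of -0.16 that passed the threshold but turned to 0.32 with median centring and 0.047 with quantile normalization. HSPH1, of the same type, was at 27.1, 26.7 and 26.6 TPM in control and 26.0, 27.8 and 25.5 TPM in MT-treated libraries, and its groups overlapped (log2 fold change -0.02, limma with Benjamini-Hochberg adjusted p = 0.652, and 0.46 with median centring).

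The heat-inducible HSPA1A was low throughout. It was at 1.14, 0.300 and 0.980 TPM in control and at 3.93, 2.93 and 3.13 TPM in MT-treated libraries, with a log2 fold change of 1.29 ± 0.21 (SE; limma, Benjamini-Hochberg adjusted p = 0.000992) that turned to -1.18 with quantile normalization. HSPA1A has a nearly identical copy, and how reads were split between such copies is not given in the sources used here. HSPA13, a microsomal HSP70, was at 5.12, 4.74 and 4.82 TPM in control and 10.03, 10.6 and 9.57 TPM in MT-treated libraries (log2 fold change 0.91, and -1.49 with quantile normalization). HSPA6, the other stress-induced member, was at 0 in all 6 libraries.

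The last 4 genes of the HSP70 family were at or next to 0 in control. HSPA4L, the third exchange factor of the HSP110 type, was at 15.2, 17.0 and 13.4 TPM in the MT-treated libraries. The atypical HSPA12A was at 13.5, 14.1 and 15.8 TPM there and at 0, 0 and 0.02 TPM in control. Its relative HSPA12B was at 3.39, 2.79 and 3.97 TPM, and HSPA2, best known from spermatogenesis, was at 6.78, 3.61 and 2.82 TPM in MT-treated libraries. All 4 passed the test as higher, as they could only do, since they passed the filter through the MT-treated libraries alone, but with quantile normalization HSPA2 was no longer called and HSPA12B stood at -0.049. Over the family, 8 of 11 tested genes were higher, 2 lower and 1 was not called (72.7% and 18.2%, beside 61.6% and 34.1% of all genes tested). Among members of the family above 0 in all libraries, 4 were higher, 2 lower and 1 was not called. Of all 6925 genes of that kind, 40.6% were higher and 52.3% lower. With quantile normalization 4 of the 11 were higher and 3 lower, beside 5550 and 5311 of all 11953 genes tested.

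**Figure D3:**
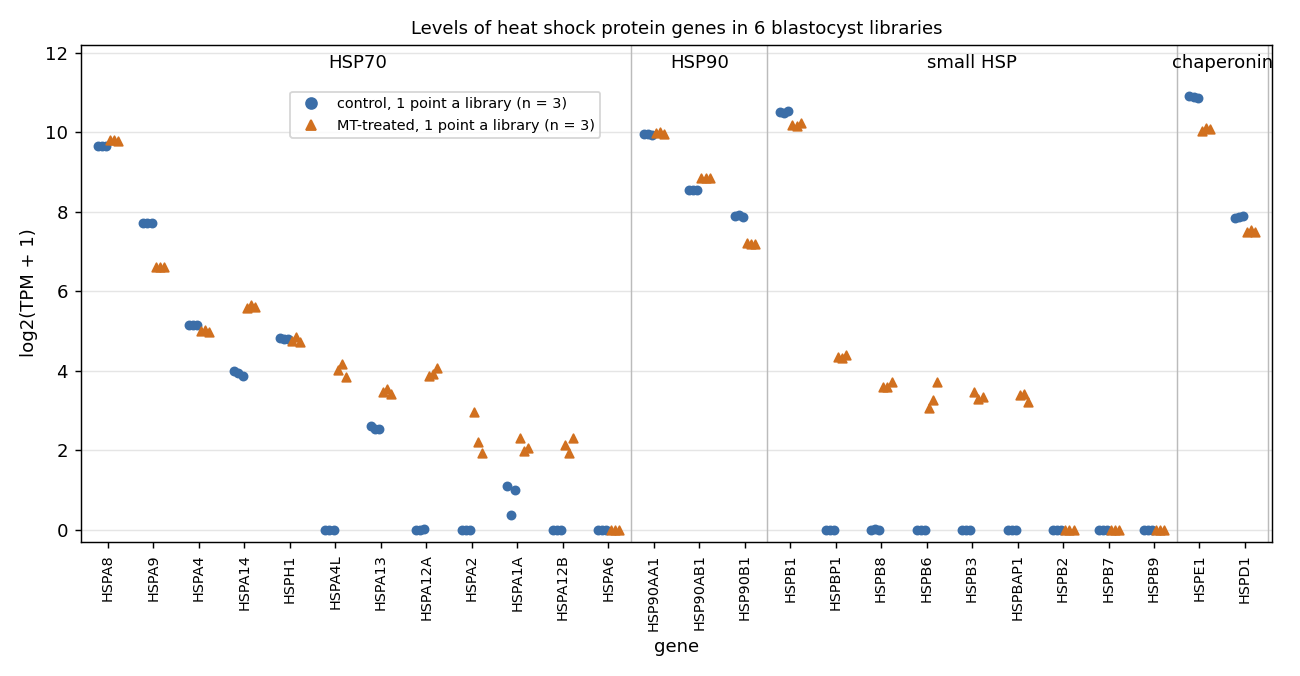
Level as log2(TPM + 1) (y axis) of each HSP70, HSP90, small heat shock protein and chaperonin gene (x axis) in the 3 control (circles) and 3 MT-treated libraries (triangles). HSPE1, HSPB1, HSP90AA1 and HSPA8 are the highest genes in both groups, and the small heat shock proteins other than HSPB1 lie at or next to 0 in control.

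The HSP90 genes parted by isoform and compartment. HSP90AA1, the inducible cytosolic isoform, was at 987, 992 and 974 TPM in control and 1002, 1017 and 988 TPM in MT-treated libraries. Its groups overlapped and its log2 fold change of 0.03 ± 0.01 (SE) did not pass the test (limma, Benjamini-Hochberg adjusted p = 0.124), although it did at 0.04 (adjusted p = 0.0459) without MT-treated replicate 3, at 0.06 with TPM rescaled to the same total and at 0.50 with median centring. HSP90AB1, the constitutive cytosolic isoform, was at 373, 372 and 370.4 TPM in control and at 461, 462 and 461 TPM in MT-treated libraries. It was 1.24-fold higher in every MT-treated library (log2 fold change 0.31 ± 0.01 SE; limma, Benjamini-Hochberg adjusted p = 3.01e-07), and the ratio of HSP90AA1 to HSP90AB1 went from 2.65 ± 0.0168 to 2.17 ± 0.0281 (SD, n = 3).

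HSP90B1, the HSP90 of the endoplasmic reticulum, fell. It was at 236, 238 and 233 TPM in control and at 147, 146 and 145 TPM in MT-treated libraries, or 1.61-fold lower (log2 fold change -0.69 ± 0.02 SE; limma, Benjamini-Hochberg adjusted p = 5.28e-08). With median centring HSP90B1 was still called lower, at -0.21. Its share of the HSP90 sum went from 14.8% in control to 9.08% after MT.

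HSPB1 made up nearly all of the small heat shock protein transcripts in control. HSPB1, which keeps unfolded proteins soluble and binds actin, was at 1459, 1424 and 1472 TPM in control and 1168, 1129 and 1192 TPM in MT-treated libraries. It was 1.25-fold lower without overlap (log2 fold change -0.32 ± 0.02 SE; limma, Benjamini-Hochberg adjusted p = 1.75e-05), but 0.16 higher once the shift of 0.48 was taken out. It ranked at the 99.1th percentile of tested genes in control and at the 98.9th in MT-treated blastocysts.

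The other tested members of this group were listed only in MT-treated libraries, apart from a value of 0.02 TPM for HSPB8 in control replicate 2. HSPB8, the partner of BAG3 in the autophagy of misfolded proteins, was at 11.0, 11.0 and 12.1 TPM in the MT-treated libraries. HSPB6, a muscle-enriched member, was at 7.39, 8.52 and 12.2 TPM and HSPB3, also known from muscle, at 10.1, 8.71 and 9.05 TPM. The binding proteins were likewise at 0 in control, with HSPBP1, an exchange factor of HSP70, at 19.4, 19.1 and 20 TPM and HSPBAP1 at 9.47, 9.72 and 8.33 TPM in MT-treated libraries. The share of HSPB1 in the sum over all genes with the HSPB symbol, these binding proteins included, went from 100% to 95.2%. Of the 6 tested genes with the HSPB symbol, 5 were higher and 1 lower, and of the 4 that encode small heat shock proteins, 3 were higher and 1 lower. Over the 6 this was 83.3% and 16.7%, beside 61.6% and 34.1% of all genes tested, but the 5 passed the filter through the MT-treated libraries alone and could only be called higher. None of the 5 was above 0 in all libraries.

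The mitochondrial chaperonin fell, its lid by more than its ring. HSPE1, the lid, was at 1907, 1893 and 1855 TPM in control and at 1042, 1089.7 and 1071 TPM in MT-treated libraries, and was the most abundant of the 69 genes over the 6 libraries. It was 1.77-fold lower (log2 fold change -0.82 ± 0.02 SE; limma, Benjamini-Hochberg adjusted p = 5.58e-08). With median centring HSPE1 was still called lower, at -0.34. HSPD1, the ring, was at 229.6, 234 and 238 TPM in control and at 179, 186 and 179.6 TPM in MT-treated libraries, or 1.29-fold lower (log2 fold change -0.36 ± 0.02 SE; limma, Benjamini-Hochberg adjusted p = 8.84e-06), although 0.12 higher with median centring. The genes are neighbours in the RefSeq annotation of ARS-UCD2.0. Their ratio went from 8.31, 8.10 and 7.81 in the control libraries to 5.83, 5.85 and 5.96 in the MT-treated libraries. Short, abundant genes such as HSPE1 have processed copies in mammalian genomes that share sequence with them, and the values cannot show how such reads were counted.

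The most abundant cytosolic J-domain partners of HSPA8 were lower. DNAJA1, a main farnesylated partner of HSPA8, was at 396, 394 and 377 TPM in control and at 171, 164 and 165 TPM in MT-treated libraries. It was 2.33-fold lower (log2 fold change -1.22 ± 0.03 SE; limma, Benjamini-Hochberg adjusted p = 3.36e-08), and the ratio of HSPA8 to DNAJA1 rose from 2.07 ± 0.0397 to 5.31 ± 0.106 (SD, n = 3). DNAJA2, of the same type, was at 163, 162 and 156 TPM in control and at 61.5, 61.5 and 56.7 TPM in MT-treated libraries, or 2.68-fold lower (log2 fold change -1.41 ± 0.04 SE; limma, Benjamini-Hochberg adjusted p = 1.02e-07). DNAJA4, a relative induced by low sterol, was at 0 in control and at 4.01, 4.05 and 4.05 TPM in MT-treated libraries. DNAJA1 alone gave 20.8% of the DNAJ sum in control and 12.9% of it after MT.

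DNAJB1 and DNAJB6, which work with HSPA8 against aggregates, followed the same direction. DNAJB1 was at 34.7, 33.5 and 33.4 TPM in control and at 21.0, 20.8 and 21.6 TPM in MT-treated libraries, a log2 fold change of -0.66. DNAJB6 was at 57.2, 53.2 and 55.8 TPM in control and at 35.1, 35.2 and 34.1 TPM in MT-treated libraries, a log2 fold change of -0.65. Both differences exceeded the spread between libraries (limma, Benjamini-Hochberg adjusted p = 1.23e-06 and 2.76e-06), and both were -0.18 with median centring. DNAJB5 fell by 0.45 on the log2 scale, less than the shift of 0.48. The sum of all DNAJ transcripts per HSP70 transcript went from 1.71 ± 0.0142 in control to 1.14 ± 0.0101 in MT-treated blastocysts (SD, n = 3).

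**Figure D4:**
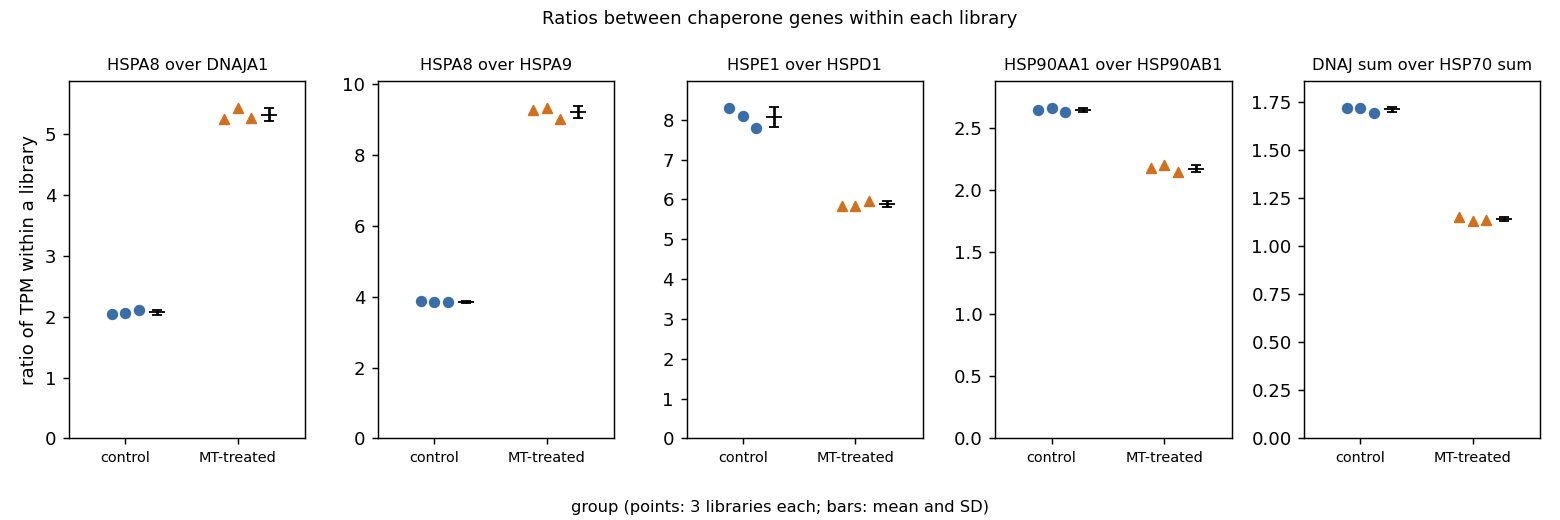
Ratio of TPM within each library (y axes, each from 0) for 4 pairs of genes and for the DNAJ sum over the HSP70 sum, in control and MT-treated libraries (points), with mean and SD (bars, n = 3). HSPA8 over DNAJA1 and HSPA8 over HSPA9 were higher and the other ratios lower in MT-treated libraries, with no overlap between groups.

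Among J-domain proteins of the endoplasmic reticulum, those of the lumen fell and the membrane proteins differed. DNAJB9, a partner of the lumenal HSP70 in degradation and in control of the unfolded protein response, was at 51.0, 53.6 and 52.0 TPM in control and at 15.0, 16.5 and 15.8 TPM in MT-treated libraries. It was 3.31-fold lower (log2 fold change -1.67 ± 0.04 SE; limma, Benjamini-Hochberg adjusted p = 6.5e-08). DNAJB11, which binds nascent secretory proteins, was at 148, 147 and 144 TPM in control and at 51.8, 53.1 and 52.2 TPM in MT-treated libraries, or 2.80-fold lower (log2 fold change -1.47 ± 0.02 SE; limma, Benjamini-Hochberg adjusted p = 4.42e-09). DNAJC3, known as an inhibitor of eIF2α kinases and as a lumenal co-chaperone, was at 129.8, 138 and 130.4 TPM in control and at 86.7, 86.4 and 81.4 TPM in MT-treated libraries, or 1.56-fold lower (log2 fold change -0.64). With median centring DNAJC3 was still called lower, at -0.16.

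DNAJC10, a disulfide reductase of the same lumen, lay outside the rule for named genes and was 2.62-fold lower, at 117, 115 and 116 TPM in control and 45.4, 44.1 and 43.3 TPM in MT-treated libraries. DNAJC22, a membrane-spanning member, was at 23.8, 23.5 and 23.6 TPM in control and at 7.63, 7.08 and 7.68 TPM in MT-treated libraries, or 3.17-fold lower (log2 fold change -1.54, and -3.09 with quantile normalization). The membrane protein DNAJB12, which takes part in the degradation of membrane proteins, went the other way. It was listed at 0 in all control libraries and at 33.0, 29.7 and 31.1 TPM in MT-treated libraries, the highest level among the genes at 0 in control. Its close relative DNAJB14 was at 9.62, 10.8 and 9.82 TPM in control and 9.67, 9.72 and 9.87 TPM in MT-treated libraries, with overlapping groups (limma, Benjamini-Hochberg adjusted p = 0.418). It was called lower by 2.11 on the log2 scale with quantile normalization and higher by 0.44 with median centring. DNAJC16, also a membrane protein, was at 0 in control and at 6.66, 6.55 and 6.46 TPM in MT-treated libraries.

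Over all 13 chaperone genes placed in the endoplasmic reticulum, 3 were higher, 8 lower and 2 not called, with a median log2 fold change of -0.64. This was 23.1% higher and 61.5% lower, beside 61.6% and 34.1% of all genes tested, whose median was 1.12, and beside 40.6% and 52.3% of genes above 0 in all libraries, whose median was -0.19. Their sum went from 813.6 ± 10.3 TPM to 464.5 ± 4.10 (SD, n = 3), or 0.571 of control. Over the 9 mitochondrial genes, 3 were higher and 6 lower (33.3% and 66.7%), with a median of -0.53, and the sum went from 2588 ± 25.1 to 1660.2 ± 23.7 TPM, or 0.642 of control. Over the 32 tested cytosolic and nuclear genes, 16 were higher, 12 lower and 4 not called (50% and 37.5%), with a median of 0.15, and the sum went from 4728 ± 35.9 to 4371 ± 21.3 TPM, or 0.924 of control. HSPA12A and HSPA12B were not placed. The places came from general knowledge of the proteins and are not certain for every member. DNAJC14, counted here as cytosolic and nuclear and not called, may also be placed at the membrane of the endoplasmic reticulum. The difference between compartments was not tested.

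The mitochondrial J-domain proteins moved both ways. DNAJC19, a subunit of the import motor of the inner membrane that works with HSPA9, was at 120.3, 125 and 123 TPM in control and at 188, 181 and 175 TPM in MT-treated libraries. It was 1.48-fold higher (log2 fold change 0.56 ± 0.03 SE; limma, Benjamini-Hochberg adjusted p = 3.44e-06) and had the highest mean of the DNAJC genes over the 6 libraries. DNAJC15, a relative of DNAJC19 at the same membrane, was also higher at 48.1, 52.9 and 48.3 TPM in control and 70.5, 69.3 and 72.8 TPM in MT-treated libraries. HSPA9 itself was lower in the same libraries. DNAJC30, linked to the ATP synthase, was 1.91-fold higher, a call that was lost with quantile normalization (log2 fold change 0.25, limma with Benjamini-Hochberg adjusted p = 0.131).

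DNAJA3, the J-domain partner of HSPA9 in the matrix, was at 28.5, 27.9 and 27.6 TPM in control and at 19.3, 18.8 and 19.2 TPM in MT-treated libraries, or 1.47-fold lower (log2 fold change -0.53 ± 0.03 SE; limma, Benjamini-Hochberg adjusted p = 2.16e-06), a difference of -0.05 that was no longer called with median centring. DNAJC28, a mitochondrial member of little known function, was at 10.9, 11.0 and 11.5 TPM in control and at 0.0100, 0.0100 and 0 TPM in MT-treated libraries. It was the only tested chaperone gene with a mean under 1 TPM in MT-treated and above 1 TPM in control blastocysts. DNAJC11, of the outer membrane, was 1.58-fold lower.

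The largest rises among the DNAJC genes were in DNAJC7, DNAJC6, DNAJC9 and DNAJC16. DNAJC7, which passes clients between HSP70 and HSP90, was at 1.92, 1.87 and 1.64 TPM in control and at 51.3, 50.8 and 48.4 TPM in MT-treated libraries. It was 27.7-fold higher (log2 fold change of TPM + 1 4.19 ± 0.05 SE; limma, Benjamini-Hochberg adjusted p = 2.61e-09). DNAJC9, a histone H3-H4 co-chaperone, was at 1.71, 1.95 and 2.11 TPM in control and at 23.0, 24.0 and 23.4 TPM in MT-treated libraries, or 12.2-fold higher (log2 fold change 3.07 ± 0.06 SE; limma, Benjamini-Hochberg adjusted p = 1.67e-08). With quantile normalization the log2 fold change was 3.20 for DNAJC7 and 1.93 for DNAJC9. DNAJC6, the auxilin that uncoats clathrin vesicles, was at 0 in control and at 11.0, 11.5 and 12.3 TPM in MT-treated libraries.

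The largest falls were in DNAJC28, DNAJC21, DNAJC17 and DNAJC22. DNAJC17, a nuclear protein of splicing, was at 89.0, 84.3 and 79.3 TPM in control and at 19.2, 18.9 and 17.4 TPM in MT-treated libraries, or 4.55-fold lower (log2 fold change -2.13 ± 0.06 SE; limma, Benjamini-Hochberg adjusted p = 8.06e-08). DNAJC21, needed for the maturation of the large ribosomal subunit, was at 24.9, 25.0 and 22.9 TPM in control and at 3.94, 4.74 and 4.74 TPM in MT-treated libraries, or 5.43-fold lower (log2 fold change -2.21 ± 0.07 SE; limma, Benjamini-Hochberg adjusted p = 2.65e-07). DNAJC8, another protein of the spliceosome, was higher in contrast, at 40.1, 41.7 and 39.4 TPM in control and 66.9, 64.8 and 65.9 TPM in MT-treated libraries.

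DNAJC5, the cysteine string protein of secretory vesicles, was among the 3 highest DNAJC genes and differed little. It was at 116, 114 and 115 TPM in control and at 102, 97.8 and 105 TPM in MT-treated libraries, a log2 fold change of -0.18 (limma, Benjamini-Hochberg adjusted p = 0.00146) that turned to 0.11 with quantile normalization and 0.30 with median centring. The remaining members lie outside the rule for named genes. DNAJC24, of diphthamide synthesis, and DNAJC25 were lower by 1.34 and 1.27 on the log2 scale. The ribosome-associated DNAJC2, a partner of HSPA14, and DNAJC18 were lower by 0.22 and 0.18, and both were higher with median centring. DNAJC13, of endosomes, had the widest relative spread among the chaperone genes with at least 20 TPM throughout, with 43.8, 37.0 and 32.1 TPM in control and 48.0, 45.0 and 34.1 TPM in MT-treated libraries, and did not pass the test (limma, Benjamini-Hochberg adjusted p = 0.367). DNAJC1 and DNAJC14 did not pass either, with adjusted p-values of 0.173 and 0.324 in the same fit, but both were called lower with quantile normalization (-0.95 and -1.95) and higher with median centring (0.55 and 0.54).

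**Figure D5:**
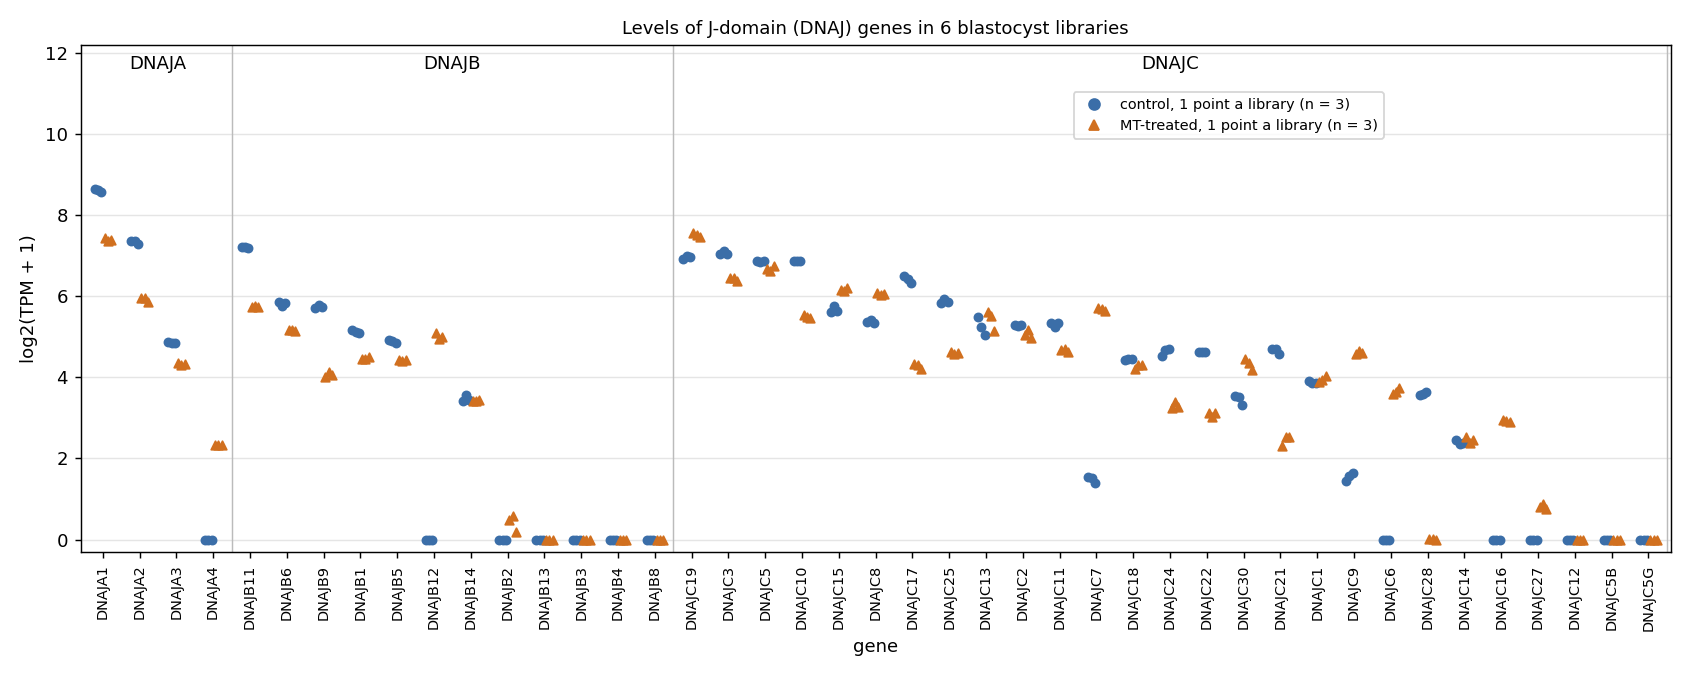
Level as log2(TPM + 1) (y axis) of each of the 43 DNAJ genes (x axis) in the 3 control (circles) and 3 MT-treated libraries (triangles). DNAJA1 is the highest in control and DNAJC19 in MT-treated libraries, and DNAJC7, DNAJC9 and DNAJB12 lie far above, and DNAJC28 far below, their control levels after MT.

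Counted by class, 1 of 4 DNAJA genes was higher and 3 were lower, with a median log2 fold change of -0.87. Of 7 tested DNAJB genes 1 was higher, 5 were lower and 1 was not called, with a median of -0.65. Of 23 tested DNAJC genes 8 were higher, 12 lower and 3 not called, with a median of -0.18. Of all 34 tested DNAJ genes, 10 were higher and 20 lower (29.4% and 58.8%), beside 61.6% and 34.1% of all genes tested and 40.6% and 52.3% of genes above 0 in all libraries. With the shift of 0.48 taken out, 17 of the 34 were higher and 15 lower, beside 8412 and 3038 of all 11953 genes tested.

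The factors that drive heat shock genes, and regulators of these factors, were measured beside their targets. HSF1, the main heat shock factor, was at 31.7, 32.7 and 31.6 TPM in control and at 10.7, 11.0 and 11.4 TPM in MT-treated libraries, a log2 fold change of -1.46 ± 0.03 (SE; limma, Benjamini-Hochberg adjusted p = 4.27e-08). HSF2, a factor active in germ cells and embryos, was at 39.8, 41.6 and 39.7 TPM in control and at 13.1, 12.7 and 11.6 TPM in MT-treated libraries, a log2 fold change of -1.62 ± 0.05 (SE; limma, Benjamini-Hochberg adjusted p = 1.92e-07). HSF5, a germ cell factor, was at 0.740, 0.860 and 0.720 TPM in control and at 15.1, 17.1 and 11.2 TPM in MT-treated libraries, and HSF2BP at 0, 0.02 and 0.02 and at 2.13, 1.83 and 2.02 TPM. With quantile normalization HSF5 was no longer called and HSF2BP turned to -0.72. Of 5 tested genes in this list of factors and regulators 2 were higher and 3 lower. The third lower gene was HSBP1, a regulator that lies outside the rule for named genes. It was at 1080, 1080 and 1077 TPM in control and at 720, 703 and 684 TPM in MT-treated libraries (log2 fold change -0.62). A second identifier with this symbol was at 0 in all libraries. For this list and the lists of related genes that follow, the shares over all genes tested were 61.6% higher and 34.1% lower, with a median of 1.12.

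Of 18 tested exchange factors and helpers of HSP70, 9 were higher, 8 lower and 1 was not called, with a median log2 fold change of 0.01. BAG3, the stress-induced exchange factor that pairs HSP70 with HSPB8, was at 9.29, 8.68 and 8.96 TPM in control and at 0.05 TPM in each MT-treated library, while HSPB8 was higher. SIL1, an exchange factor of the endoplasmic reticulum, was at 29.1, 27.2 and 29.2 TPM in control and at 5.26, 6.40 and 6.37 TPM in MT-treated libraries (log2 fold change -2.08). BAG4, a cytosolic exchange factor, was at 0 in control and at 11.8, 11.4 and 11.7 TPM in MT-treated libraries.

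Of 20 tested genes in a list of HSP90 co-chaperones, which also holds the mitochondrial HSP90 TRAP1 and the HSP90 client FLCN, 11 were higher and 9 lower, with a median of 0.27. FKBP5, an immunophilin of steroid receptor complexes, was at 0.440, 0.680 and 0.480 TPM in control and at 42.9, 41.6 and 44.3 TPM in MT-treated libraries, and FLCN, itself a client, at 0.660, 0.270 and 0.540 and at 30.4, 29.9 and 28.8 TPM. Their log2 fold changes were 4.84 and 4.37 on the TPM + 1 scale. TRAP1 was at 22.6, 23.4 and 25.3 TPM in control and at 1.22, 1.35 and 1.21 TPM in MT-treated libraries, a log2 fold change of -3.45 ± 0.05 (SE; limma, Benjamini-Hochberg adjusted p = 7.16e-09). UNC45A, a myosin chaperone, was at 51.7, 48.2 and 50.2 TPM in control and at 11.0, 11.2 and 11.7 TPM in MT-treated libraries (log2 fold change -2.06).

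The summed level of the cytosolic chaperonin TRiC overlapped between the groups, while its subunits went in both directions. The 8 subunits summed to between 1918 and 1944 TPM in control and between 1932 and 1943 TPM in MT-treated libraries, and 4 were higher and 4 lower. CCT2 was at 150.0, 147 and 148 TPM in control and at 285, 282 and 281 TPM in MT-treated libraries, and CCT8 was higher by 0.69 on the log2 scale. CCT6A was at 208, 209 and 205 TPM in control and at 85.6, 87.4 and 86.9 TPM in MT-treated libraries, and TCP1 was lower by 0.78. Of 6 subunits of prefoldin, which hands actin and tubulin to TRiC, 2 were higher (PFDN6 by 0.90, PFDN1 by 0.24), 3 were lower (PFDN5 by 1.40 and PFDN2 by 0.63 among them) and 1 was not called.

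Of 5 tested genes in a list of disaggregases and other chaperones, 2 were higher, 2 lower and 1 was not called. CRYAB, a small heat shock protein without the HSP symbol, was at 0 in control and at 10.7, 9.52 and 9.55 TPM in MT-treated libraries. CLPB, a mitochondrial disaggregase, was at 0 and at 5.67, 5.64 and 2.62 TPM, and was no longer called with quantile normalization. SERPINH1, the collagen chaperone, was lower by 1.40, and the mitochondrial protease LONP1 was lower by 0.22 but higher by 0.26 with median centring.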

How the data were processed

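RNA was measured in 6 pools of bovine blastocysts, 3 control and 3 MT-treated, grouped by the sample labels. Values were deposited by the authors as TPM, for each gene in each library. Per the labels and the methods, reads passed FastQC 0.11.9, were aligned with STAR 2.7.9a and were counted with featureCounts of Subread 1.6.3, and the authors used DESeq2 for their own tests. The processing notes name ARS-UCD1.2 and the methods a later build, the kits named there differ (TruSeq and Smart-seq2), and how counts became TPM is not given in the sources used here. No coordinates are printed. RefSeq genes served for neighbours only, and all 69 symbols matched.

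Genes with at least 1 TPM in at least 3 libraries were tested on log2(TPM + 1) with lmFit and eBayes with a trend (limma 3.58.1, R 4.3.3), with Benjamini-Hochberg adjustment over all genes at 0.05. An exact two-sided permutation test of 3 against 3 cannot go below 0.1. Sums and ratios were made with Python 3.11.15, numpy 2.4.6 and pandas 2.3.3, and figures with matplotlib 3.10.9.

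Named were all heat shock protein genes that reach 1 TPM. For each DNAJ class the rule took the 3 highest, the 4 largest rises and falls, and genes at 0 in a group with at least 10 TPM in the other, and for each related list the 2 largest rises and falls. All genes so named are reported except for a single gene of the related lists, which is not reported here. Members and lists were chosen with earlier results of these data known. For a gene at 0 throughout a group no fold is given. Alternatives were a minimum of 5 TPM, no filter, a pseudocount of 0.1, TPM rescaled to the same total, quantile normalization, median centring, genes with a symbol, genes above 0 throughout, eBayes without trend, a replicate block and each library left out.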

Additional observations from a re-analysis of the deposited data

How the results depend on the processing

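Of 66 named genes with a fit, 51 kept direction and call under every alternative run. Quantile normalization changed the split of all genes to 5550 higher and 5311 lower and that of HSP70 to 4 higher, and reversed HSPA4 (0.047), HSPA12B (-0.049), HSPA13 (-1.49), HSPA1A (-1.18), DNAJC5 (0.11) and HSF2BP (-0.72). Median centring changed the split of all genes to 8412 higher and 3038 lower, and gave 1 lower HSP70, 2 higher HSP90, 0 lower small heat shock protein, 1 higher and 1 lower chaperonin and 17 higher DNAJ genes. It reversed HSPA4 (0.32), HSPH1 (0.46), HSPB1 (0.16), HSPD1 (0.12), DNAJC5 (0.30) and LONP1 (0.26). With genes above 0 throughout only, which leaves out genes at 0 in control by construction, 2814 genes were higher, among them 11 chaperones, 4 HSP70, 0 small heat shock proteins and 6 DNAJ. A minimum of 5 TPM left 5 higher HSP70 genes. TPM rescaled to the same total gave 2 higher HSP90 genes and differences of the sums (MT-treated minus control) of -1541 TPM for all members, 77.6 for HSP70 and 63.8 for HSP90, in place of -1616, 42.8 and 17.5. The cause of these changes was not tested. Without each library in turn, 7319 to 7338 genes were higher and 4004 to 4049 lower, with 24 to 25 chaperones higher, 26 lower and 1 to 2 HSP90 genes higher. The sums then differed by -1649 to -1589 TPM for all members, 37.4 to 52.5 for HSP70, 9.93 to 25.1 for HSP90, -246 to -212 for small heat shock proteins, -883 to -855 for the chaperonin and -594 to -565 for DNAJ. Same-numbered libraries did not deviate together (correlations -0.0115, -0.000679 and 0.0588), and not every library correlated best with its own number. With a replicate block 7379 genes were higher and 4082 lower, with 26 chaperones higher, 11 of them DNAJ, and 26 lower, and 2 HSP90 genes were higher, since HSP90AA1 then passed at 0.03 (limma, Benjamini-Hochberg adjusted p = 0.0254). TPM hold no counts, and what depth limits was not assessed here.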
